A study of Mus musculus with 9 samples.

Results

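The transcripts described here encode proteins that bring fatty acids into cells and carry them once inside. The set holds 9 genes, taken by the gene name that the array files give each probe: Cd36, Slc27a2, Slc27a4, Lpl, Vldlr, Fabp1, Fabp2, Fabp4 and Fabp5. They were read by 18 probes, and 8 of the 9 genes were among the 17636 features tested in the whole series. Fabp5 was not tested, because its probe was well above background on 1 of the 9 arrays. The study measured liver RNA of male C57bl/6J mice on 1-colour Agilent arrays, with 1 array per liver and 3 livers per diet. All mice were labelled as 16 weeks old and had eaten their diet for 12 weeks. The chow mice ate standard food, the HFD mice received D12492, a high-fat food giving 60 kcal% as fat, and the HFD+APS mice ate that high-fat diet mixed with Astragalus polysaccharides (APS), plant carbohydrates, at 40 g per kg. The series title names nonalcoholic fatty liver as the condition under study. The livers had been picked by staining and triglyceride content, so the p-values measure the spread between these picked livers.

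Fatty acids reach the liver as free acids from adipose tissue and as triglycerides inside lipoproteins. Lipoprotein lipase releases fatty acids from circulating triglycerides, membrane proteins such as CD36 and the fatty acid transport proteins aid their entry and activation, and the small cytosolic fatty acid binding proteins hold them in solution between membranes and enzymes. Hepatocytes are known for very abundant FABP1, whereas FABP4 is best known from adipocytes, macrophages and endothelial cells, FABP2 from the intestine and lipoprotein lipase from muscle and adipose tissue.

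Values are log2 signals above or below the 75th percentile of their own array. Means carry the SD over the 3 arrays of a diet, and differences are log2 differences ± SE from limma over all features. A gene was called when its Benjamini-Hochberg adjusted p over all 17636 features was under 0.05. The upper-quartile signal of the arrays lay between 209.7 and 264.7, and 50.4 to 68.4% of gene spots were well above background. The chow arrays shared a slide of their own, so for every comparison with chow, diet and slide cannot be told apart. The HFD arrays shared their slide with HFD+APS 1, while a further slide carried HFD+APS 2 and HFD+APS 3. Arrays on the slide of the HFD livers had 50.4 to 54.1% of gene spots well above background, and those on the other slides 61.5 to 68.4%. The median signal of negative control spots was 62.4 to 68.4 on that slide and 44 to 49.4 on the others. For HFD+APS against HFD, values within the shared slide are given beside the others. They rest on HFD+APS 1 alone, which has no replicate there, and its spread is assumed to be that of the other arrays. The liver label was checked against 10 hepatocyte markers, of which 9 were tested, and their summed signal was 1980 to 2100 times the 75th percentile in chow, 1530 to 1910 in HFD and 1720 to 2140 in HFD+APS. Of these markers, Tat was called lower in HFD than in chow (-0.73 ± 0.18, limma, adjusted p = 0.0417) and Cps1 higher in HFD+APS than in HFD (1.11 ± 0.19, limma, adjusted p = 0.0346). In bulk liver, fewer cells of a type and less RNA per cell cannot be told apart.

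Against chow, Cd36 and Fabp2 rose in HFD livers, and no member fell. That is 2 of 8 members called higher, beside 4.55% of all features, and 0 of 8 called lower, beside 6.38%. Cd36, Fabp2, Fabp4, Lpl, Vldlr and Slc27a4 were higher in every HFD array than in every chow array, which is 6 of 8 members against 16.6% of all features. None was lower in every HFD array, which 22.3% of all features were. The median log2 difference of the 8 members was 0.77, beside -0.04 over all features. The other members, Fabp1 and Slc27a2, differed by -0.14 ± 0.17 and 0.13 ± 0.12.

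Against HFD, Cd36 fell in HFD+APS livers and no other member was called. This is 1 of 8 members called lower, where 1.03% of all features were, and 0 of 8 called higher, where 0.476% were. Cd36, Fabp4 and Slc27a4 were lower in every HFD+APS array than in every HFD array, 3 of 8 members against 11.8% of all features. No member was higher in every HFD+APS array, against 12.6% of features. The members' median difference was -0.43, beside 0.00 over all features. Both comparisons use the same HFD arrays, so a high HFD value moves the results of each in opposite directions.

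**Figure D1:**
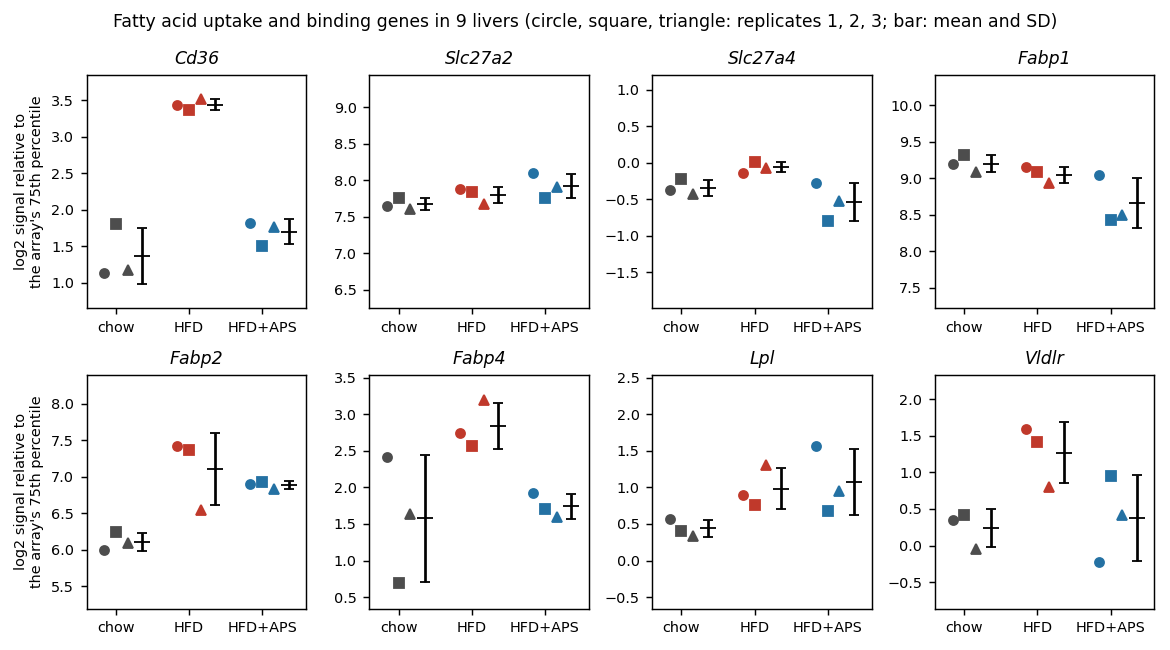
Each panel plots a member's log2 signal against the 75th percentile of its array (vertical axis, the same length of scale in each panel) in the 3 chow, 3 HFD and 3 HFD+APS livers, with the mean and SD beside the points. The HFD points of Cd36, at 3.36 to 3.51, stand above all points of the other diets, while the Fabp2 points of HFD+APS stay between 6.83 and 6.93, above those of chow.

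No member was called in HFD+APS against chow. The count called was 0 of 8 higher, where 0.958% of all features were called, and 0 of 8 lower, where 2.51% were. At an unadjusted p under 0.05, 25.2% of all features differed in that comparison. Fabp2, Lpl and Slc27a2 were higher in every HFD+APS array than in every chow array, 3 of 8 members against 12.7% of features, and Fabp1 alone was lower in every array, 1 of 8 against 18.2%. The median difference of the members was 0.20, beside -0.03 over all features.

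**Figure D2:**
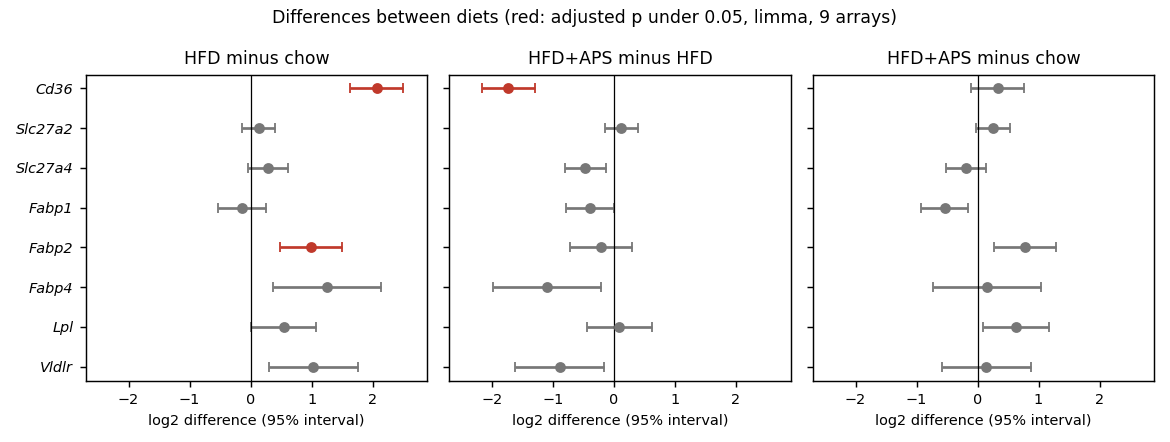
Log2 differences of the 8 tested members between diets, with the 95% interval of limma's fit, in 3 panels for the 3 comparisons. Points are red where the adjusted p was under 0.05, which holds for Cd36 and Fabp2 in HFD minus chow and for Cd36 in HFD+APS minus HFD.

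CD36 is a membrane glycoprotein that binds long-chain fatty acids and modified lipoproteins. Its log2 signal was 1.14, 1.81 and 1.17 in the chow livers, 3.44, 3.36 and 3.51 in the HFD livers and 1.82, 1.51 and 1.77 in the HFD+APS livers. The HFD livers stood apart from all others, and the chow and HFD+APS livers overlapped. On the linear scale of the scanner, before any scaling between arrays, these were signals of 519, 736 and 550 in chow, 2650, 2720 and 2980 in HFD, and 828, 729 and 841 in HFD+APS. The group means were 1.37 ± 0.38, 3.44 ± 0.07 and 1.70 ± 0.17, so the spread was smallest in HFD. Cd36 was 4.19-fold higher in HFD than in chow (2.07 ± 0.19, adjusted p = 0.00204, 95% interval 1.63 to 2.50), rank 30 of 17636 features by p. It was 3.33-fold lower in HFD+APS than in HFD (-1.74 ± 0.19, adjusted p = 0.01, interval -2.17 to -1.30), rank 23. Within the slide that held the HFD arrays and HFD+APS 1, the difference was -1.62 ± 0.27 (limma, adjusted p = 0.0488). HFD+APS livers differed from chow by 0.33 ± 0.19 (adjusted p = 0.315), with an interval of -0.10 to 0.76. Without chow 2, the highest chow liver, that difference was 0.55 ± 0.13 (limma, adjusted p = 0.125), and without chow 1 it was 0.21 ± 0.20 (limma, adjusted p = 0.558).

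A separate Cd36 probe gave nearly the same differences. The probe that stands for the gene lies at chr5:17288600-17288659 (mm9, minus strand), and the other spans chr5:17289110-17291542. The latter read 1.13, 1.92 and 1.17 in chow, 3.59, 3.41 and 3.4 in HFD, and 1.6, 1.42 and 1.51 in HFD+APS. It gave 2.06 ± 0.21 for HFD against chow and -1.96 ± 0.21 for HFD+APS against HFD, with adjusted p = 0.00827 and 0.0271 in a limma fit of all 41174 probes, and 0.11 ± 0.21 for HFD+APS against chow. Whether a probe lies in a coding exon or a UTR was not determined for any member.

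The promoters of the called members Cd36 and Fabp2 are shown with that of Fabp1, an abundant liver gene that was not called, because peroxisome proliferator-activated receptors, which sense fatty acids, are known to bind DNA as partners of RXR at paired hexamers. The sequences are the 250 bases before the annotated start in RefSeq (GRCm38.p6), 5′ to 3′ on the gene's strand. The search was for a pair of AGGTCA hexamers in the same direction with 1 base between them, on both strands, with at most 2 mismatches in the hexamers, and matches are in capitals. They lie at chr5:17835897-17836146 on the minus strand (Cd36), chr6:71199629-71199878 on the plus strand (Fabp1) and chr3:122894822-122895071 on the plus strand (Fabp2).
Cd36: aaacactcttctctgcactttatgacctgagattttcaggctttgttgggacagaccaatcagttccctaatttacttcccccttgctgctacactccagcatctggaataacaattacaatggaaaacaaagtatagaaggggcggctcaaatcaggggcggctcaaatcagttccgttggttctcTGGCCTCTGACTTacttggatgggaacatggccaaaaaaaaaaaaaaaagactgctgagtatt
Fabp1: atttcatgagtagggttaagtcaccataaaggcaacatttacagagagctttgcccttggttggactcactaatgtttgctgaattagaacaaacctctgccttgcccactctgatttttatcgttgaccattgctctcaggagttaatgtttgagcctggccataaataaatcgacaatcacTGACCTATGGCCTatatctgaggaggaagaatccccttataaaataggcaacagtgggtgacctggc
Fabp2: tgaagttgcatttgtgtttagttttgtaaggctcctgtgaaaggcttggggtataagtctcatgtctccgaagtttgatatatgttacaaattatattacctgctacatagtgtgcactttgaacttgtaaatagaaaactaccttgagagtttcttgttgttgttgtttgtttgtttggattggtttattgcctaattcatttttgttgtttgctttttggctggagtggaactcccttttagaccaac
The Cd36 window held 1 match, TGGCCTCTGACTT, with 2 mismatches, which begins 63 bases before the start. The Fabp1 window held 1 match, TGACCTATGGCCT, with 1 mismatch, 67 bases before the start. Both are on the opposite strand, so the printed strand shows the reverse complement. The Fabp2 window held none, and none was found in the windows of Slc27a2, Slc27a4 or either listed start of Vldlr. Of 32841 promoter windows of this length, 1063 (3.24%) held a match. The table listed 6 of the 9 members, and Fabp4, Fabp5 and Lpl were not among them. A match is a description of the letters only, and the array measured no binding.

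SLC27A2 (FATP2) is a very-long-chain acyl-CoA synthetase and fatty acid transporter of hepatocytes, and SLC27A4 (FATP4) is its relative best known from intestine and skin. Their probes were the most alike of any pair from different members, which is why they are shown. The overlapping stretch held 44 bases, of which 26 (59.1%) were the same, set in capitals. The Slc27a2 probe lies at chr2:126413550-126413609 and the Slc27a4 probe at chr2:29671115-29671174, both on the plus strand of mm9.
Slc27a2 probe: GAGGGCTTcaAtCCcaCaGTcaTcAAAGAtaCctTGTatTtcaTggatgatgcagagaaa
Slc27a4 probe: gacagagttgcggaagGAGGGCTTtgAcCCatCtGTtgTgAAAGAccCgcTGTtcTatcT
Slc27a2 read 7.64, 7.76 and 7.60 in chow, 7.88, 7.84 and 7.67 in HFD, and 8.10, 7.76 and 7.90 in HFD+APS. Its HFD values overlapped with those of both other diets, and its lowest HFD+APS value equalled the highest chow value to 2 decimals. The differences were 0.13 ± 0.12 for HFD against chow (adjusted p = 0.49, interval -0.14 to 0.40) and 0.12 ± 0.12 for HFD+APS against HFD (adjusted p = 0.625, interval -0.15 to 0.40). HFD+APS minus chow was 0.25 ± 0.12 (adjusted p = 0.232). A dimmer Slc27a2 probe at chr2:126390415-126390474 gave the opposite sign for HFD against chow, -0.13 ± 0.12, and 0.37 ± 0.12 for HFD+APS against HFD. A further probe under that gene name, on the minus strand at chr2:126347090-126347149, was well above background on 0 of the 9 arrays.

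Slc27a4 read -0.38, -0.22 and -0.43 in chow, -0.14, 0.01 and -0.07 in HFD, and -0.28, -0.80 and -0.53 in HFD+APS. Every HFD liver lay above every liver of the other diets, by small steps. The difference was 0.28 ± 0.14 for HFD against chow (adjusted p = 0.218, interval -0.05 to 0.61). It was -0.47 ± 0.14 for HFD+APS against HFD (adjusted p = 0.149, interval -0.80 to -0.14). Within the shared slide the latter was -0.21 ± 0.16 (limma, adjusted p = 0.639). Its second probe, at chr2:29672404-29672464, was well above background on 1 of 9 arrays and was not used.

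Lipoprotein lipase, the secreted enzyme that cleaves triglycerides in chylomicrons and VLDL, was not called in any comparison. Lpl read 0.57, 0.40 and 0.34 in chow, 0.89, 0.76 and 1.30 in HFD, and 1.56, 0.68 and 0.95 in HFD+APS. Each liver on high-fat food, with or without APS, lay above each chow liver, and the HFD and HFD+APS livers overlapped. HFD minus chow was 0.55 ± 0.23 (adjusted p = 0.152, interval 0.01 to 1.08) and HFD+APS minus chow was 0.63 ± 0.23 (adjusted p = 0.145, interval 0.09 to 1.17). HFD+APS minus HFD was 0.08 ± 0.23 (adjusted p = 0.885), with an interval of -0.45 to 0.62 that allows a difference in either direction. The highest value was that of HFD+APS 1, and within the shared slide HFD+APS minus HFD was 0.58 ± 0.23 (limma, adjusted p = 0.321). Without that array, HFD+APS minus chow was 0.38 ± 0.18 (limma, adjusted p = 0.231). The probe at chr8:71430267-71430326 stands for the gene, and a dimmer probe at chr8:71425050-71425109 gave 0.63 ± 0.22 and 0.10 ± 0.22 for HFD against chow and HFD+APS against HFD.

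VLDLR is the receptor that binds and takes up triglyceride-rich lipoproteins. Its transcript read 0.35, 0.42 and -0.05 in chow, 1.59, 1.42 and 0.80 in HFD, and -0.22, 0.95 and 0.42 in HFD+APS. All HFD livers were above all chow livers, but HFD 3 lay below HFD+APS 2. HFD minus chow was 1.03 ± 0.32 (2.04-fold, adjusted p = 0.0726, interval 0.30 to 1.76), which missed the threshold. It passed without HFD+APS 1 (1.03 ± 0.25, adjusted p = 0.0371), the array with the lowest Vldlr value. The probe at chr19:27324042-27324101 stands for the gene, and a dimmer one lies at chr19:27328369-27328428. With the second brightest probe standing for each gene that has one, HFD minus chow was 1.24 ± 0.26 (limma, adjusted p = 0.0284). In the fit of all probes this dimmer probe missed the threshold, at 1.24 ± 0.27 (limma, adjusted p = 0.0541). HFD+APS minus HFD was -0.89 ± 0.32 (adjusted p = 0.202, interval -1.62 to -0.16), and within the shared slide -1.49 ± 0.36 (limma, adjusted p = 0.116). Without HFD+APS 1, the array behind that value, it was -0.58 ± 0.28 (limma, adjusted p = 0.283).

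FABP1, the liver-type binding protein, carries fatty acids, acyl-CoA and other hydrophobic ligands. Fabp1 read 9.19, 9.32 and 9.08 in chow, 9.15, 9.08 and 8.93 in HFD, and 9.04, 8.43 and 8.50 in HFD+APS. Chow and HFD overlapped, and HFD+APS 2 and HFD+APS 3 lay below all other livers while HFD+APS 1 lay among the HFD livers. No array was saturated at this probe (chr6:71154906-71154965), whose scanner signal ranged from 88200 to 143000. HFD minus chow was -0.14 ± 0.17 (adjusted p = 0.606, interval -0.53 to 0.25). HFD+APS minus HFD was -0.40 ± 0.17 (adjusted p = 0.274) and HFD+APS minus chow was -0.54 ± 0.17 (adjusted p = 0.106, interval -0.93 to -0.15). Without HFD+APS 1 both passed the threshold, at -0.59 ± 0.12 (limma, adjusted p = 0.0496) and -0.73 ± 0.12 (limma, adjusted p = 0.0143). HFD+APS minus chow was smaller under another scaling, at -0.31 ± 0.12 after quantile normalization (limma, adjusted p = 0.172) and -0.31 ± 0.13 from the authors' deposited table (limma, adjusted p = 0.186). Within the shared slide, which keeps HFD+APS 1 alone of its group, HFD+APS minus HFD was -0.01 ± 0.15. Both low arrays share a slide that held no HFD array, so for them slide and liver cannot be told apart.

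Fabp2, the intestinal-type binding protein, rose in HFD livers. It read 6.00, 6.24 and 6.10 in chow, 7.42, 7.36 and 6.54 in HFD, and 6.90, 6.93 and 6.83 in HFD+APS. No chow liver reached the value of any liver on high-fat food, and the HFD+APS livers lay inside the range of HFD, close to each other. The means were 6.11 ± 0.12, 7.11 ± 0.49 and 6.89 ± 0.05. HFD minus chow was 0.99 ± 0.22 (1.99-fold, adjusted p = 0.031, interval 0.49 to 1.5). HFD+APS minus HFD was -0.22 ± 0.22 (adjusted p = 0.64, interval -0.72 to 0.29), and HFD+APS minus chow was 0.78 ± 0.22 (adjusted p = 0.0851, interval 0.27 to 1.28). The call for HFD against chow is less firm than that of Cd36. It was lost when any 1 of the chow arrays, HFD 1, HFD 2 or HFD+APS 3 was left out, with differences of 0.83 to 1.05 and adjusted p of 0.0527 to 0.0866 by limma. It was also lost with slide as a random block, at 0.99 ± 0.26 (limma, adjusted p = 0.0701). Without HFD 3, the lowest HFD liver, HFD+APS minus chow passed at 0.78 ± 0.10 (limma, adjusted p = 0.0195), and HFD+APS minus HFD was -0.50 ± 0.11 (limma, adjusted p = 0.11).

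A separate Fabp2 probe gave 1.02 ± 0.25 for HFD against chow and -0.25 ± 0.25 for HFD+APS against HFD. It lies at chr3:122599692-122599751 and the probe that stands for the gene at chr3:122602276-122602335, both on the plus strand. In the fit of all 41174 probes the adjusted p for HFD against chow was 0.0701 and 0.0639 for these probes by limma, so both missed the threshold there. With the second brightest probe standing for each gene that has one, Fabp2 passed at 1.02 ± 0.24 (limma, adjusted p = 0.038). The defining enterocyte markers Vil1, Lct, Sis and Cdx2 were well above background on 0 of the 9 arrays. Of 10 enterocyte and pancreas markers 3 were tested, Alpi, Apoa4 and Cela1, and their summed signal was 3.02 to 5.46 in chow, 36.1 to 53.5 in HFD and 3.96 to 15.3 in HFD+APS. That sum follows Apoa4, an apolipoprotein that liver also makes, which rose by 3.52 ± 0.49 in HFD against chow (limma, adjusted p = 0.00944). The part of intestinal or pancreatic cells in the Fabp2 difference was not tested.

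FABP4 (aP2) is the binding protein of adipocytes and macrophages. An aligned stretch of a Fabp4 and a Fabp2 probe is shown because these genes belong to the same family and lie on the same chromosome. In 36 overlapping bases, 16 (44.4%) were the same, set in capitals. Each of these probes shared a larger part of its overlapping bases with a probe outside the family. For the Fabp4 probe this was a Slc27a4 probe, and for the Fabp2 probe a Slc27a2 probe (51.4% of 35 bases). The capitals therefore show no likeness particular to the family.
Fabp4 probe: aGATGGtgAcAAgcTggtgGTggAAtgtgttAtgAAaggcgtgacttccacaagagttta
Fabp2 probe: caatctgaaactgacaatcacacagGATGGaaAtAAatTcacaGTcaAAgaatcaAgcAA
Fabp4 read 2.42, 0.69 and 1.64 in chow, 2.75, 2.57 and 3.19 in HFD, and 1.92, 1.70 and 1.59 in HFD+APS. All HFD livers lay above all others, chow spread widely with chow 2 lowest, and HFD+APS lay inside the chow range. HFD minus chow was 1.25 ± 0.39 (2.38-fold, adjusted p = 0.0716, interval 0.37 to 2.14). It passed without chow 1, the highest chow liver, at 1.67 ± 0.30 (limma, adjusted p = 0.036), and after normexp background correction at 1.22 ± 0.33 (limma, adjusted p = 0.0481). Without chow 2 it was 0.81 ± 0.27 (limma, adjusted p = 0.143). HFD+APS minus HFD was -1.10 ± 0.39 (adjusted p = 0.194, interval -1.99 to -0.21), and within the shared slide -0.91 ± 0.57 (limma, adjusted p = 0.547). HFD+APS minus chow was 0.15 ± 0.39 (adjusted p = 0.838). The values above are from the probe at chr3:10204452-10204511 on the minus strand. The probe printed above, at chr3:10204533-10205262, gave 1.34 ± 0.44 and -1.13 ± 0.44 for HFD against chow and HFD+APS against HFD, and a dim probe at chr3:10208442-10208501 gave 1.70 ± 0.61 and -1.07 ± 0.61.

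**Figure D3:**
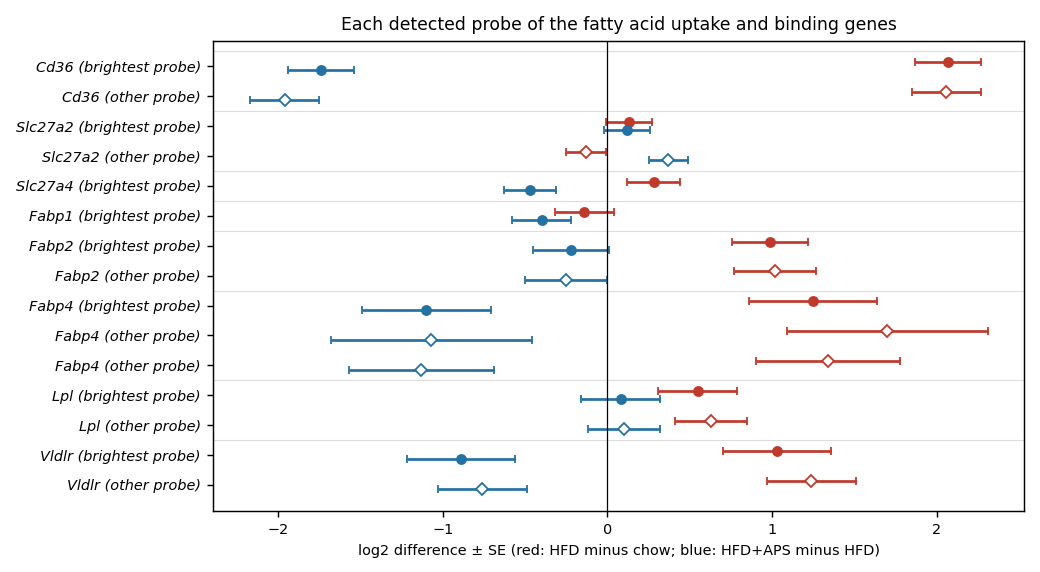
Log2 difference ± SE at each of the 15 detected probes of the 8 genes, for HFD minus chow (red) and HFD+APS minus HFD (blue), with filled circles for the brightest probe of a gene and open diamonds for its other probes. The probes of a gene have the same sign except for Slc27a2, whose probes gave 0.13 and -0.13 for HFD minus chow, and the 3 Fabp4 probes range from 1.25 to 1.70.

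Summed marker signals of cells other than hepatocytes that are known to make Fabp4, Cd36 or Lpl also differed between the livers. The summed signal of 8 tested of 10 monocyte-derived and lipid-associated macrophage markers was 29.5 to 56.2 in chow, 75.6 to 127 in HFD and 44.8 to 72.5 in HFD+APS. HFD 3, the liver with the highest Fabp4, had the highest sum, and chow 2, the liver with the lowest Fabp4, the lowest. The sums add linear signals, so a few bright markers weigh most. Spp1 read 2.52, 2.83 and 5.49 in HFD 1, HFD 2 and HFD 3. Lyz2 read 3.69 in chow 2, beside 5.30 and 5.31 in the other chow livers, and neither gene was called. Chow 2 also had the lowest sum of the Kupffer cell, endothelial and stellate lists below. Within the monocyte-derived and lipid-associated list, 2 of 8 tested markers were called higher in HFD than in chow, beside 4.55% of all features. They were Ly6c2 (1.89 ± 0.26, limma, adjusted p = 0.00944) and Trem2 (2.33 ± 0.50, limma, adjusted p = 0.0279). Cd9 alone went the other way, at -0.71 ± 0.26 (limma, adjusted p = 0.113). The sum of 12 Kupffer cell and macrophage markers was 45 to 75.1 in chow, 81.3 to 120 in HFD and 63.2 to 133 in HFD+APS, with HFD+APS 1 highest. Of these 12 markers 0 were called in any comparison. Their median in HFD against chow was 1.05, and Marco alone was negative, at -0.56 ± 0.69. The sum of 11 liver endothelial markers was 51.2 to 75.8, 85.1 to 99 and 91.4 to 105, with every HFD and every HFD+APS liver above every chow liver. Among these 11, 2 were called higher in HFD than in chow, beside the same 4.55% of all features. They were Clec4g (0.80 ± 0.20, limma, adjusted p = 0.0394) and Oit3 (0.92 ± 0.24, limma, adjusted p = 0.0461). Clec4g is the brightest of the 11 and weighs most in their sum. The median of the 11 in HFD against chow was 0.28. Single markers ranged from 0.02 ± 0.20 (Kdr) to 1.27 ± 0.40 (Lyve1), with Pecam1 at 0.12 ± 0.12 and Stab1 at 0.07 ± 0.13. The sum of 8 stellate cell markers was 68.7 to 123, 116 to 138 and 111 to 129. That sum follows Dcn, the brightest of them, which was not called in HFD against chow (0.39 ± 0.20, limma, adjusted p = 0.227). Of the 8, 2 were called higher in HFD than in chow, again beside 4.55% of all features. They were Col1a1 (2.08 ± 0.45, limma, adjusted p = 0.0294) and Col3a1 (1.79 ± 0.30, limma, adjusted p = 0.0151). The part of any of these cells in the differences of Cd36, Fabp4, Lpl or Vldlr was not tested.

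**Figure D4:**
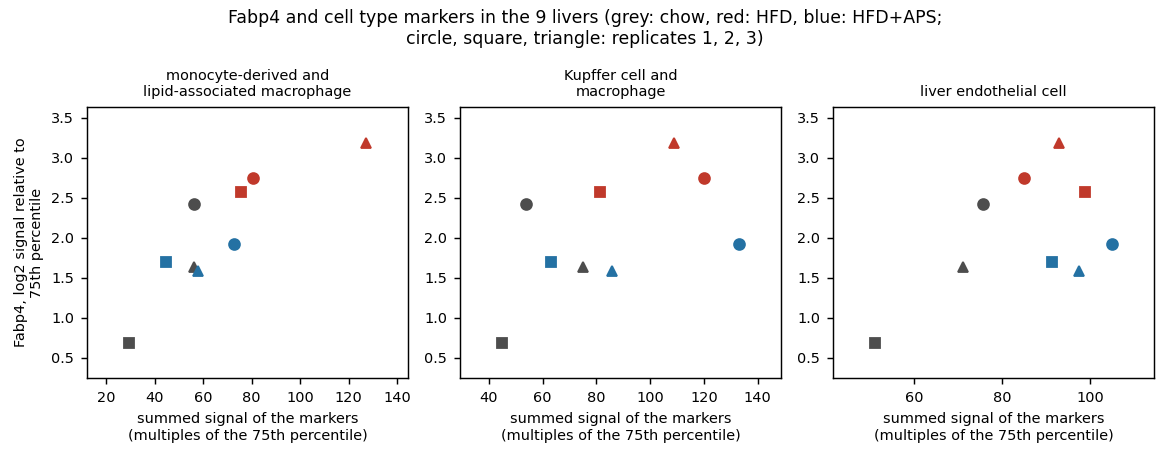
Fabp4 (log2 signal over the 75th percentile of the array, vertical axis) against the summed signal of 3 marker lists (multiples of the 75th percentile, horizontal axis) in the 9 livers. Chow 2 is lowest on both axes in each panel, and HFD 3 is highest on both for monocyte-derived macrophage markers, while the HFD+APS livers have endothelial sums of 91.4 to 105 at Fabp4 values of 1.59 to 1.92. The sum of HFD 3 holds a log2 Spp1 signal of 5.49, beside 2.52 and 2.83 in HFD 1 and HFD 2.

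Adipocyte markers were mostly at background. Adipoq and Plin1 were well above background on at most 1 of 9 arrays, Lep and Adrb3 on 0 and Retn on 2, and 3 of 8 markers (Cfd, Lipe and Cidec) were tested. The sum of the tested markers was 6.69 to 11.3 in chow, 18.2 to 68.3 in HFD and 3.23 to 16.1 in HFD+APS. That sum follows Cidec and Cfd, and 0 of the 3 markers were called in any comparison. Lipe differed by 0.02 ± 0.15 in HFD against chow and by 0.19 ± 0.15 in HFD+APS against HFD. Cidec, a lipid droplet protein, read 2.43, 3.20 and 2.6 in chow, 5.54, 3.91 and 4.19 in HFD, and 3.93, 1.11 and 1.48 in HFD+APS. Cfd, which encodes adipsin, read 2.44, -2.28 and -3.48 in chow, 4.41, 1.42 and 4.18 in HFD, and -2.16, -1.6 and -1.59 in HFD+APS. Cfd was high in chow 1, the chow liver with the highest Fabp4, and its HFD and chow values overlapped. Of 6 striated muscle markers 0 were tested.

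FABP5, the epidermal-type binding protein, stayed too dim to compare. Its probe, at chr3:10016373-10016432, read -4.76, -4.14 and -4.70 in chow, -3.53, -4.14 and -3.34 in HFD, and -4.34, -3.73 and -4.78 in HFD+APS. It was well above background in 1 HFD+APS liver only, so no fold is given.

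Genes of the same pathway outside the set were mostly not called. The lists below are read beside the shares of all features called. These were 4.55% higher and 6.38% lower in HFD against chow, and 0.476% and 1.03% in HFD+APS against HFD. In HFD+APS against chow they were 0.958% and 2.51%. Of 16 fatty acid transport and acyl-CoA synthetase genes 13 were tested, and 0 were called in HFD against chow (median -0.08, range -0.83 to 0.62) or in HFD+APS against HFD (median 0.14, range -0.48 to 1.93). In HFD+APS against chow 1 was called higher and 0 lower, with a median of 0.00. That gene was Cav1, which encodes caveolin-1 of the plasma membrane, at 0.08, -0.85 and -1.03 in chow, -1.15, -0.59 and 0.15 in HFD, and 1.41, 1.81 and 0.96 in HFD+APS. All HFD+APS livers were above all others. The difference was 1.99 ± 0.40 against chow (limma, adjusted p = 0.0409) and 1.93 ± 0.40 against HFD (limma, adjusted p = 0.0625).

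Of 12 other intracellular lipid binding proteins 5 were tested. The list had 0 calls in HFD against chow (median 0.35, range 0.01 to 1.11) and 0 in HFD+APS against HFD (median -0.73, range -1.04 to 0.59). In HFD+APS against chow (median -0.49) 1 was called higher and 0 lower. Fabp7, the brain-type binding protein, was the called gene, at 0.45, -0.64 and 0.30 in chow, 0.92, 1.42 and 1.09 in HFD, and 2.33, 1.23 and 1.66 in HFD+APS. Chow livers were the lowest, and the high-fat groups overlapped. The difference from chow was 1.70 ± 0.35 in HFD+APS (limma, adjusted p = 0.0428) and 1.11 ± 0.35 in HFD (limma, adjusted p = 0.0771).

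Genes that govern lipoprotein lipase or take up lipoproteins gave 3 calls among 20 tested of 21 in HFD against chow, with a median of -0.07. Of these, 2 were higher, beside 4.55% of all features, and 1 was lower, beside 6.38%. Apoc2, the activator of lipoprotein lipase, read 7.50, 7.65 and 7.69 in chow, 8.41, 8.44 and 8.46 in HFD, and 8.03, 8 and 7.88 in HFD+APS. Its diets did not overlap, with HFD+APS between the others. It rose by 0.83 ± 0.10 in HFD against chow (limma, adjusted p = 0.0052), and HFD+APS minus HFD was -0.47 ± 0.10 (limma, adjusted p = 0.0587). Angptl4, which encodes an inhibitor of lipoprotein lipase, read 7.64, 7.98 and 7.91 in chow, 7.30, 7 and 6.89 in HFD, and 7.45, 7.15 and 7.31 in HFD+APS. All high-fat livers were below all chow livers. It fell by 0.78 on the log2 scale in HFD against chow (SE 0.15, limma, adjusted p = 0.0216), and HFD+APS minus HFD was 0.24 ± 0.15 (limma, adjusted p = 0.442). Lrpap1, a chaperone of lipoprotein receptors, rose by 0.37 ± 0.09 (limma, adjusted p = 0.0371). In HFD+APS against HFD and against chow, 0 of the 20 were called, with medians of -0.07 and -0.03.

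Of 14 nuclear receptors of fatty acid and lipid genes 13 were tested, and 0 were called in any comparison, with medians of -0.08 in HFD against chow, 0.05 between the high-fat groups and -0.06 in HFD+APS against chow. At an unadjusted p under 0.05, 31.4, 17.9 and 25.2% of all features differed in these comparisons. Pparg and Ppara, chosen here after their values were seen, encode the fatty acid sensing receptors most often tied to Cd36 and Fabp1. Pparg differed by 0.59 ± 0.27 (adjusted p = 0.181) and -0.78 ± 0.27 (adjusted p = 0.194) in HFD against chow and HFD+APS against HFD, and Ppara by -0.06 ± 0.20 and 0.10 ± 0.20.

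Over the 9 arrays, the Cd36 signal was most like that of Pmm1 (Pearson r = 0.992), Rcan2 (0.984) and Mogat1 (0.984). Their log2 differences were 1.23, 2.55 and 2.70 for HFD minus chow and -0.99, -2.23 and -2.20 for HFD+APS minus HFD. The Fabp2 signal was most like that of Taco1 (r = 0.986), Eif3l (0.968) and Ugt3a1 (0.966), whose differences were far smaller than that of Fabp2, at 0.26, 0.14 and 0.26 for HFD minus chow. Among the members, Cd36 correlated with Slc27a4 at r = 0.75, with Vldlr at 0.74, with Fabp4 at 0.67, with Fabp2 at 0.66 and with Fabp1 at 0.15. Fabp1 and Slc27a4 correlated at 0.70, and Lpl and Vldlr at -0.06. These correlations over 9 arrays carry the differences between the diets and the slides they share, and are given as descriptions.

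Cd36 was called under all 18 alternative settings for HFD against chow, at 1.87 to 2.29 with adjusted p of 0.00049 to 0.0159 by limma, and under all 18 that keep at least 2 HFD+APS arrays for HFD+APS against HFD, at -1.96 to -1.63 with adjusted p of 0.00253 to 0.0458 by limma. The value within the shared slide, with 1 HFD+APS array, is given above and is not among these 18. In these comparisons, Fabp1, Fabp2, Fabp4 and Vldlr lay on different sides of the threshold under different settings, and Lpl, Slc27a2 and Slc27a4 stayed above 0.05 in all.

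**Figure D5:**
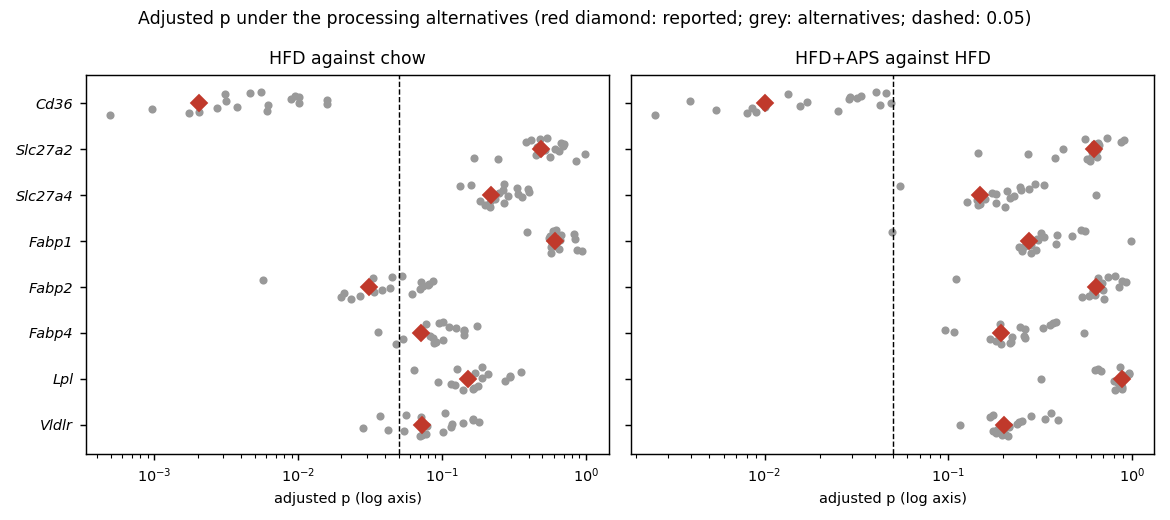
Adjusted p (log axis) of each tested member in HFD against chow and in HFD+APS against HFD, with a red diamond for the value reported and grey points for the alternatives, and a dashed line at 0.05. All Cd36 points lie left of the line, the value within the shared slide (1 HFD+APS array) included, and those of Fabp2 lie on both sides of it in HFD against chow.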

How the data were processed

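Total liver RNA of 9 mice, 3 per diet, was hybridised by the authors to 1-colour Agilent arrays and read with Feature Extraction, whose version is 10.7 in the submitters' processing notes and 10.7.1.1 in the files. The deposited signal of a spot is an intensity, from which background was subtracted within the array and which was not scaled between arrays, per the file headers. The authors also deposited log2 values of all arrays, used as an alternative. That table correlated at 0.9969 or more with the log2 scanner signal of each array, its column medians were 4.98 or 4.99, and its normalization is not given in the sources used here. Genes in it were not centred.

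Signals were read in R 4.3.3 (data.table, version 1.17.8). Control spots (1639 of 45018) and spots marked as non-uniform or population outliers were left out, repeat spots were averaged (41174 probes), and signals were put on the log2 scale relative to the 75th percentile of their array. Probes well above background on at least 3 of 9 arrays entered (26478), the brightest standing for its gene. Names came from RefSeq by accession (27668 probes), another accession (85), symbol (5533) or synonym (460), and 7428 probes kept the file's name. Members were matched on the file's gene name, and 15 of their 18 probes were detected. All 17636 features were fitted at once in limma 3.58.1 (lmFit, eBayes, 6 residual and 2.2 prior degrees of freedom, 2-sided), and 5 features had missing values, none of them a member. Code was tested on simulated data. Probe positions are mm9, from the files. The number of arrays limits the precision.

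The members, lists and alternatives were chosen with earlier results of these data known. Named were all members, every called gene of 4 pathway lists, the 3 RefSeq-named features most like each called member, and cell type markers. Alternatives were normexp (offset 50), quantile scaling, the deposited table, other filters and probe rules, slide or replicate number as a block, and each array left out. The use of the second brightest probe was added after seeing the data.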

Additional observations from a re-analysis of the deposited data

How the results depend on the processing

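Over the log2 differences of the members under the alternatives, 418 values kept their direction and side of the threshold, 8 passed it, 8 lost it and 6 changed sign. The counts moved more. Against 1929 features called in HFD against chow, 265 in HFD+APS against HFD and 612 in HFD+APS against chow, the counts were 798, 79 and 224 with no filter on dim probes, 684, 164 and 165 in a fit that takes slide as random block, and 365 to 2711, 51 to 578 and 21 to 1607 when each array was left out in turn. Members called in HFD against chow were 2, and 1 with no filter (Fabp2 lost at 0.99, limma, adjusted p = 0.0616), 1 in the random slide fit, and 1 to 3 without each array. They were 1 in HFD+APS against HFD (1 to 2 without each array) and 0 in HFD+APS against chow (0 to 1).

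The replicate numbers did not pair the samples, as deviations of same-numbered arrays correlated at -0.17 to 0.16. With replicate number as a block, 1324, 82 and 296 features were called, and Cd36 kept its calls (limma, adjusted p = 0.0159 and 0.0427), as did Fabp2 (limma, adjusted p = 0.0434).

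Values that changed sign were not called in either setting. They were Slc27a2 in HFD against chow with its second brightest probe (-0.13), Lpl in HFD+APS against HFD without HFD 2 (-0.03) and without HFD+APS 1 (-0.17), Fabp4 in HFD+APS against chow without chow 2 (-0.29), and Vldlr in HFD+APS against chow without chow 3 (0.00) and without HFD+APS 2 (-0.14). Over all arrays left out in turn, these ranged from -0.17 to 0.27 for Lpl, -0.29 to 0.57 for Fabp4 and -0.14 to 0.44 for Vldlr. The mean of its probes carried Vldlr past the threshold in HFD against chow (1.13, limma, adjusted p = 0.0424). With slide as a fixed block 199 features were called in HFD+APS against HFD, 60.3% of them higher, beside 31.7% in the fit without it. The cause of these changes was not tested. The slide of the chow arrays held no other diet, so no fit separates it from chow, and signal near background limits Fabp5 and the dimmest probes.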
